A study of Sus scrofa with 12 samples.

Results

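The genes described here are the 4 ID genes (ID1, ID2, ID3 and ID4) and the 2 MSX genes (MSX1 and MSX2) of the pig, read as targets of the BMP pathway in induced pluripotent stem cells. They were chosen by name, as the rows whose gene symbol equals one of these names, and they make up 6 of the 24358 genes in each of the 2 deposited expression tables. The cells, called PC-iPS, were reprogrammed from pig pericytes, and all libraries were made from poly(A) RNA of such cells. The study used a tdTomato reporter placed at NANOG to ask which signals raise or lower that gene, and it sequenced 4 groups of 3 libraries.

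WT libraries came from the parental PC-iPS cells, which carry no reporter. Knock-in libraries came from NANOG tdTomato PC-iPS cells that were transfected, put through drug selection and sorted for tdTomato. The knock-in cultures were not clones: cells within one culture could differ in which NANOG locus and how many alleles carried the insert, or could carry none. Libraries of the other groups came from NANOG tdTomato cells given Activin A, a ligand that acts through SMAD2 and SMAD3, or SB431542, an inhibitor of the type I receptors for Activin, Nodal and TGF-β that spares the BMP type I receptors. The labels name LCDMV medium (LIF, CHIR99021, dimethindene, minocycline and vitamin C) for all libraries, while the study's methods describe the cytokine experiments in T1 medium, which is LCDMV without LIF. Doses and times for the sequenced cultures are not given in the sources used here. Most feeder cells were removed by letting them attach to a plate before RNA was taken. The study chose its knock-in lines, nanog1 to nanog3, from independently transfected cultures, and the knock-in libraries carry these names. The labels do not say whether the libraries of the other groups came from separate cultures, nor whether Activin A or SB431542 library 1 came from knock-in line 1. The p-values therefore measure the spread between these libraries.

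BMP ligands bind pairs of type I and type II receptors, which phosphorylate SMAD1, SMAD5 and SMAD9, and these enter the nucleus with SMAD4 and bind the promoters of the ID genes. ID proteins have a helix-loop-helix domain but no DNA-binding basic region, so they pair with E proteins (TCF3, TCF4, TCF12) and keep them from partners such as the proneural factors. MSX1 and MSX2 encode homeobox repressors that are turned on by BMP in limb, tooth, neural crest and trophectoderm, and in mouse embryonic stem cells ID1 and ID3 are the classic genes through which BMP holds back neural differentiation.

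All 6 genes are protein coding in RefSeq's annotation of Sscrofa11.1, the assembly to which the authors aligned. ID1 (ENSSSCG00000037016) lies at chr17:35316518-35317742 and ID2 (ENSSSCG00000008645) at chr3:127500759-127503207. ID3 (ENSSSCG00000039514) lies at chr6:81422541-81424169 and ID4 (ENSSSCG00000024312) at chr7:15281535-15284895. MSX1 (ENSSSCG00000008727) lies at chr8:5628381-5632375 and MSX2 (ENSSSCG00000034500) at chr16:49765587-49771745. The ID genes are short, with spans of 1225 bp for ID1, 1629 bp for ID3, 2449 bp for ID2 and 3361 bp for ID4, and MSX1 and MSX2 span 3995 and 6159 bp. ID1 is the member that the study also chose to measure by RT-PCR, and the primer pair it designed for that assay is shown because it defines the ID1 transcript measured there, 20 and 21 bases long.
ID1-F: ctcgacgaacagcaggtgaa
ID1-R: cagattggaggggacaagatt

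Levels are given in FPKM, fragments scaled to transcript length and to the reads of the library, a unit that allows genes of different length to be compared within a library. The 12 libraries had 15339 to 15827 genes above 0. Total depth is unknown, but steps between low values put the WT libraries at 0.566 to 0.635 of the depth of knock-in library 1 and the other knock-in libraries at 0.732 and 0.871, so low values in WT are the least precise. The libraries expressed SOX2 at 39.1 to 71.5 FPKM and LIN28A at 32.8 to 498 FPKM, both pluripotency genes, while ZFP42, a marker of naive pluripotency, was listed at 0 in all 12. The targeted gene, NANOG, was at 52.0, 101 and 70.4 FPKM in knock-in and 9.71, 16.4 and 27.6 FPKM in WT, with the limit that its 2 genomic loci share sequence. Because fewer cells of a type and less RNA per cell cannot be told apart in bulk RNA, every level below is an average over the culture.

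The members differed widely in level, and their order was much the same in every group. ID3 was the highest of the 6 genes in 12 of 12 libraries, ID2 was second in 12 of 12 and MSX2 was last in 12 of 12. ID3 made up 85.5% ± 1.18 (SD, n = 3) of the summed FPKM of the ID genes in knock-in, 63.4% ± 11.7 in WT, 77.6% ± 1.79 under Activin A and 86.6% ± 3.25 under SB431542. The neighbours ID2 and ID4 overlapped in WT (12.5 to 29.5 FPKM against 10.2 to 17.0 FPKM) but not in knock-in, where ID2 lay at 19.3 to 28.1 FPKM and ID4 at 7.34 to 13.6 FPKM. In knock-in, ID4, MSX1 (4.13 to 16.2 FPKM) and ID1 (4.86 to 10.5 FPKM) overlapped and had no clear order.

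**Figure D1:**
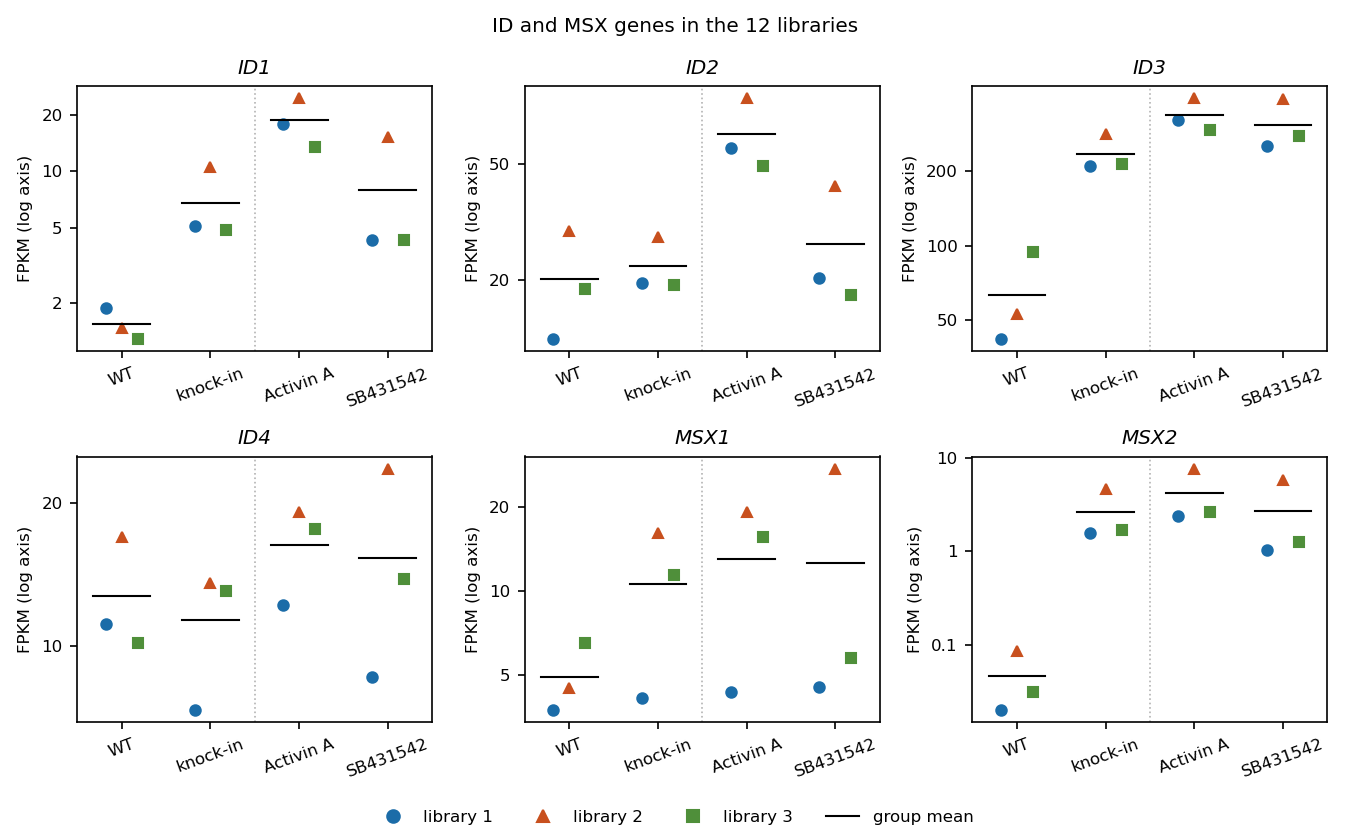
FPKM of each ID and MSX gene (vertical log axis, with its own range per gene) in the 12 libraries, by group; symbols give the library number, bars the mean of 3, and the dotted line parts the 2 separately made tables. ID1, ID3 and MSX2 in knock-in lie above every WT library, and outside WT the library numbered 2 is the highest of its group for all 6 genes.

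The comparison of knock-in with WT asks how the reporter cells differ from their parents. ID1, ID3 and MSX2 were higher in the knock-in cells, whereas ID2, ID4 and MSX1 did not pass the test. A gene was called where its log2 fold change reached 1 in either direction and its limma p, adjusted over all genes, did not exceed 0.05. By this measure 3 of the 6 members were called higher and 0 lower, while of all 14014 genes tested 1.61% were called higher and 0.706% lower. The same 3 members did not overlap between the groups, as was true, in the higher direction, of 19.0% of all genes. The median log2 fold change of the 6 was 1.19, and that of all genes tested was -0.0014. MSX2 met the filter on low values only through the 3 knock-in libraries, so its place in that count rests in part on the filter.

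ID3, the most abundant of the inhibitors, was at 210 FPKM, 284 FPKM and 214 FPKM in knock-in libraries 1 to 3 and at 41.8 FPKM, 52.8 FPKM and 93.9 FPKM in the WT libraries. Every knock-in library lay more than a doubling above the highest WT library. The group means were 236 ± 41.7 FPKM and 62.8 ± 27.5 FPKM (SD, n = 3 each), a ratio of 3.75. On the log2 scale of FPKM + 1 the change was 1.96 (SE 0.28, 95% interval 1.31 to 2.62, limma adjusted p = 0.015), and the exact two-sided permutation test gave p = 0.1, the smallest that 3 against 3 allows. Without knock-in library 2 the fold change was 1.82 and the adjusted p was 0.051, so the call was lost. Alternatives that kept all libraries gave adjusted p from 0.011 to 0.039.

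ID1, the best known early BMP response gene, was at 5.13 FPKM, 10.5 FPKM and 4.86 FPKM in knock-in and at 1.87 FPKM, 1.46 FPKM and 1.28 FPKM in WT. The groups did not overlap, and knock-in library 2 was about double the other knock-in libraries. The means were 6.83 ± 3.17 FPKM and 1.54 ± 0.303 FPKM, a ratio of 4.44 and a log2 fold change of 1.56 (SE 0.27, 95% interval 0.93 to 2.19, adjusted p = 0.023). The call was lost without knock-in library 1 (1.70, adjusted p = 0.061), without WT library 1 (1.65, adjusted p = 0.061) and without WT library 2 (1.54, adjusted p = 0.062), while alternatives that kept all libraries gave adjusted p from 0.018 to 0.050.

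MSX2, a homeobox repressor, was at 1.57 FPKM, 4.69 FPKM and 1.69 FPKM in knock-in and at 0.0200 FPKM, 0.0865 FPKM and 0.0307 FPKM in WT. It was thus close to the floor of detection in WT and clearly present in each knock-in library. Its log2 fold change of FPKM + 1 was 1.70 (SE 0.29, 95% interval 1.03 to 2.38, adjusted p = 0.022), a scale that understates the change of so low a gene. With a pseudocount of 0.1 it was 4.09 and with 0.01 it was 5.57, both called, and over all alternatives with every library the adjusted p ran from 0.0061 to 0.047. The call was lost without WT library 1 (1.68, adjusted p = 0.072) and without WT library 2 (1.73, adjusted p = 0.059).

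The paralogue MSX1 was at 4.13 FPKM, 16.2 FPKM and 11.4 FPKM in knock-in and at 3.75 FPKM, 4.50 FPKM and 6.51 FPKM in WT. Knock-in library 1 lay inside the WT range and the other knock-in libraries lay above it. On the log2 scale MSX1 differed by 0.82, with a 95% interval from -0.16 to 1.81 (adjusted p = 0.24), so neither no difference nor a tripling falls outside the interval.

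ID2, which pairs with E proteins as ID1 does, was at 19.5 FPKM, 28.1 FPKM and 19.3 FPKM in knock-in and at 12.5 FPKM, 29.5 FPKM and 18.7 FPKM in WT. ID4, the family member best known from neural and germline cells, was at 7.34 FPKM, 13.6 FPKM and 13.1 FPKM in knock-in and at 11.13 FPKM, 17.0 FPKM and 10.2 FPKM in WT. The groups overlapped for both genes. The log2 fold change was 0.19 for ID2 (95% interval -0.49 to 0.87, adjusted p = 0.70) and -0.17 for ID4 (95% interval -0.79 to 0.45, adjusted p = 0.71), so a doubling in either direction lay outside both intervals. Their direction was not stable: it turned for ID4 without knock-in library 1 (0.091) or WT library 2 (0.040), and for ID2 without WT library 1 (-0.093).

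The summed FPKM of the 4 ID genes was 276 ± 52.0 in knock-in and 97.4 ± 28.5 in WT. Its make-up differed with it: ID2 supplied 8.05% ± 0.343 in knock-in and 21.0% ± 7.39 in WT, and ID4 supplied 4.10% ± 1.09 and 13.9% ± 4.91. The share of ID1 was small in both, at 2.39% ± 0.636 and 1.76% ± 0.912.

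**Figure D2:**
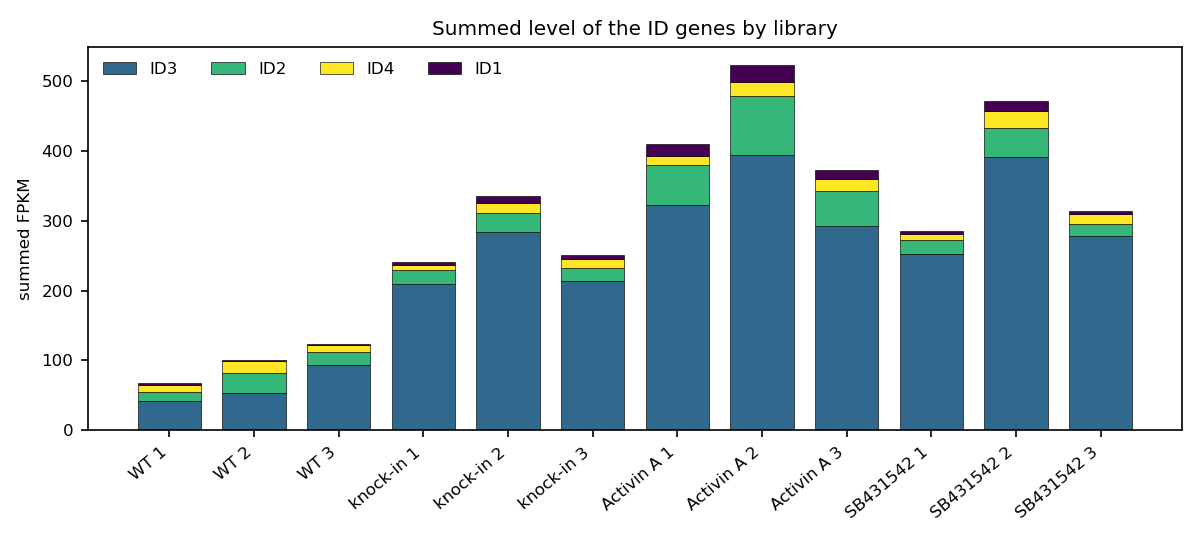
Summed FPKM of the ID genes in each of the 12 libraries (vertical axis from 0), with each bar divided by gene. ID3 is the main part of every bar, WT bars reach 67.3 to 124 FPKM and knock-in bars 242 to 336 FPKM, and the ID2 part is wider in each Activin A bar than in any other.

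Genes of other cell types moved with the same contrast. The summed FPKM of 14 pericyte and mesenchymal markers was 376 to 518 in knock-in and 41.4 to 53.5 in WT. In knock-in most of the sum was TAGLN, a smooth muscle gene that lay at 15.2 to 26.6 FPKM in WT. POSTN was at 0 in all knock-in libraries. The sum of the 11 trophectoderm markers with a row was 77.8 to 514 FPKM in knock-in and 13.1 to 19.8 FPKM in WT. In knock-in most of the sum was KRT8, which lay at 3.34 to 8.50 FPKM in WT, and CDX2 was at 0 in all 12 libraries. Pluripotency markers summed to 294 to 517 FPKM and 148 to 167 FPKM, and neural ectoderm markers to 308 to 384 FPKM and 246 to 360 FPKM. The part of these cells or genes in the ID1, ID3 and MSX2 differences was not tested. Reporter insertion, selection, sorting and culture history cannot be told apart in this contrast.

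The comparison of Activin A with SB431542 asks what SMAD2/3 signalling does to these genes. Between libraries with the same number, Activin A over SB431542 was 2.01 to 2.80 for ID2, 1.60 to 4.17 for ID1 and 1.33 to 2.32 for MSX2. For ID3, the most abundant member, it was only 1.01 to 1.28, and ID4 and MSX1 differed in direction between pairs. The share of all genes higher in every such pair was not taken, so these ratios are a description. In the unpaired limma fit 0 of the 6 members were called in either direction, and of all 13999 genes tested 0.0571% were called higher and 0.0357% lower. At an unadjusted p of at most 0.05, 2 members (ID1 and ID2) and 12.8% of all genes passed. Libraries with the same number deviated together in this table, so the fit with the replicate number as a block is given beside it: it called 1 member higher, ID2, against 0.521% of all genes, and 0 lower, against 0.186%. At an unadjusted p of at most 0.05 with the block, 3 members (ID1, ID2 and MSX2) and 23.7% of all genes passed. The median log2 fold change of the members was 0.42 and that of all genes tested was -0.0040.

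ID2 was at 56.9 FPKM, 84.3 FPKM and 49.4 FPKM in Activin A libraries 1 to 3 and at 20.3 FPKM, 42.0 FPKM and 17.8 FPKM in the SB431542 libraries. The groups did not overlap, as in 9.19% of all genes for the higher direction, and library 2 was the highest in both. Activin A over SB431542 was 2.80 for number 1, 2.01 for number 2 and 2.78 for number 3. For ID2 the log2 fold change was 1.28, with an SE of 0.34 and adjusted p = 0.21 unpaired, and an SE of 0.11 (95% interval 1.01 to 1.56) and adjusted p = 0.019 with the block. The adjusted p over the other alternatives with all libraries reached 0.30.

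ID1 was at 17.95 FPKM, 24.5 FPKM and 13.5 FPKM with Activin A and at 4.31 FPKM, 15.3 FPKM and 4.34 FPKM with SB431542. The groups overlapped through one library: SB431542 library 2 lay above Activin A library 3, while the other SB431542 libraries were far below all of the Activin A libraries. The ratio was 4.17, 1.60 and 3.10 for numbers 1, 2 and 3. The log2 fold change was 1.31 (95% interval 0.21 to 2.41, limma adjusted p = 0.32), and with the block its interval was 0.71 to 1.91 (adjusted p = 0.062), which missed the threshold. The study itself reported more ID1 mRNA with Activin A than with SB431542, in its RNA sequencing and by RT-PCR. Leaving out both libraries numbered 2, an alternative chosen after seeing the data, gave 1.64 for ID1 (SE 0.18, adjusted p = 0.15) and 1.43 for ID2 (SE 0.13, adjusted p = 0.14), neither called.

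ID3 was at 323 FPKM, 395 FPKM and 293 FPKM with Activin A and at 253 FPKM, 391 FPKM and 278 FPKM with SB431542. The groups overlapped, and the same-number ratios were 1.28, 1.01 and 1.05. Its log2 fold change was 0.15 (95% interval -0.29 to 0.59, adjusted p = 0.78), or -0.051 to 0.35 with the block, so a difference of the size fitted for ID1 or ID2 lay outside both intervals.

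ID4 was at 12.2 FPKM, 19.2 FPKM and 17.6 FPKM with Activin A and at 8.58 FPKM, 23.7 FPKM and 13.8 FPKM with SB431542. MSX1 was at 4.35 FPKM, 19.1 FPKM and 15.6 FPKM with Activin A and at 4.54 FPKM, 27.4 FPKM and 5.77 FPKM with SB431542. Both genes overlapped between the treatments and moved in different directions in different pairs, with ratios of 1.42, 0.810 and 1.28 for ID4 and 0.958, 0.698 and 2.71 for MSX1. The log2 fold changes were 0.17 (95% interval -0.66 to 0.99, adjusted p = 0.87) and 0.25 (95% interval -1.52 to 2.02, adjusted p = 0.92), and the width of the MSX1 interval leaves changes of several fold either way within it.

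MSX2 was at 2.40 FPKM, 7.73 FPKM and 2.62 FPKM with Activin A and at 1.03 FPKM, 5.81 FPKM and 1.26 FPKM with SB431542. It was higher with Activin A in each numbered pair, by 2.32, 1.33 and 2.08, although the groups overlapped. The log2 fold change was 0.59 (95% interval -0.74 to 1.92, adjusted p = 0.69), and with the block the interval was 0.31 to 0.88 (adjusted p = 0.068), again short of the threshold.

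**Figure D3:**
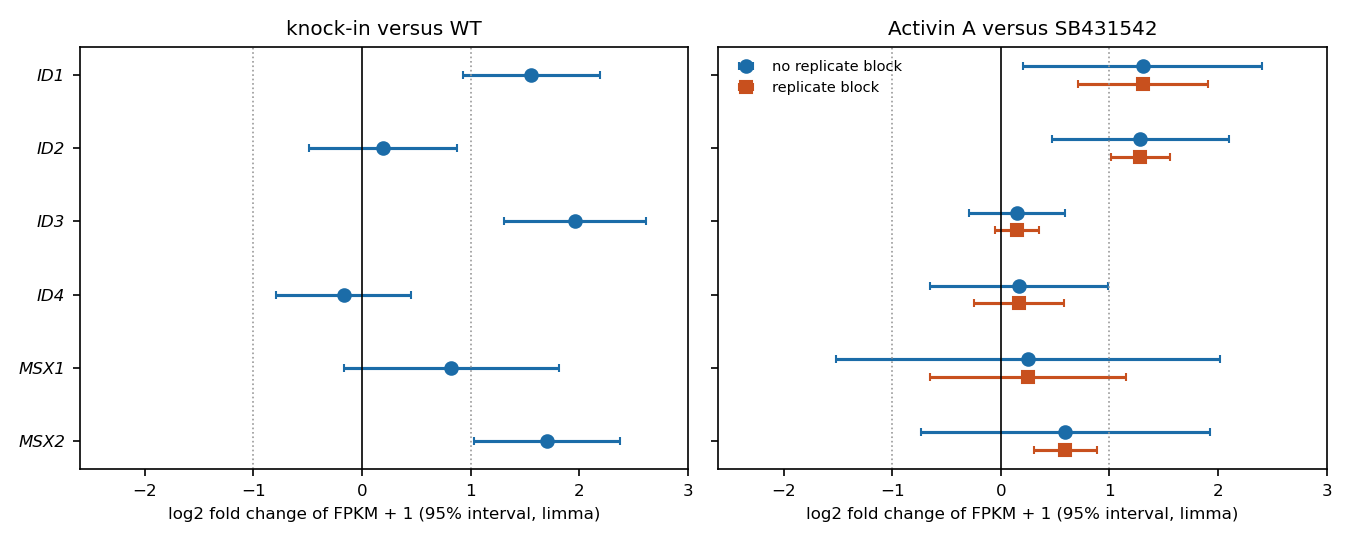
Log2 fold changes of FPKM + 1 with 95% intervals for the ID and MSX genes, knock-in against WT on the left and Activin A against SB431542 on the right, where circles are the unpaired fit and squares the fit with the replicate block; dotted lines mark a log2 fold change of 1 either way. ID1 (1.56), ID3 (1.96) and MSX2 (1.70) stand apart from 0 on the left. On the right the intervals of ID1 (1.31) and ID2 (1.28) lie above 0 in both fits and that of MSX2 (0.59) with the block alone, but only ID2 with the block was called.

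The members called therefore differed between the contrasts, with ID3 at 1.96 and 0.15, ID2 at 0.19 and 1.28, and ID1 at 1.56 and 1.31 in knock-in against WT and Activin A against SB431542. Whether a member's change differs between the contrasts was not tested, since the 2 tables were made separately and the media of the cultures may differ. The make-up of the ID genes also differed between the treatments, as a description with no test: ID2 supplied 13.2 to 16.1% of their summed FPKM with Activin A and 5.65 to 8.90% with SB431542, and ID1 supplied 3.61 to 4.69% and 1.38 to 3.24%. These shares did not overlap. Set beside the knock-in libraries, ID1 and ID2 with SB431542 (4.31 to 15.3 FPKM and 17.8 to 42.0 FPKM) spanned the knock-in values (4.86 to 10.5 FPKM and 19.3 to 28.1 FPKM), and with Activin A both lay above all of them; no test was made across the tables.

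Marker sums of other cell types overlapped between these treatments, but single markers differed. Pericyte and mesenchymal markers summed to 379 to 474 FPKM with Activin A and 355 to 473 FPKM with SB431542, neural ectoderm markers to 319 to 410 FPKM and 276 to 356 FPKM, and pluripotency markers to 309 to 507 FPKM and 336 to 653 FPKM. The trophectoderm markers summed to 85.9 to 472 FPKM and 122 to 947 FPKM. Among the markers, the smooth muscle actin gene ACTA2 was called lower with Activin A unpaired (-1.13, adjusted p = 0.035). With the block the collagen genes COL1A2 (1.59, adjusted p = 0.024) and COL3A1 (3.08, adjusted p = 0.012, which met the filter only with the help of the Activin A libraries), NANOG and the trophectoderm genes TFAP2C (1.51, adjusted p = 0.019) and GATA2 (2.28, adjusted p = 0.034) were called higher, and the keratin gene KRT8 (-1.21, adjusted p = 0.015) and the pluripotency gene LIN28A (-1.55, adjusted p = 0.015) lower. The part of these genes and their cells in the ID1 and ID2 values was not tested.

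Libraries numbered 2 stood apart for the members. Outside WT, number 2 was the highest of its group for 18 of 18 pairs of member and group, whereas in WT, whose numbers stand for no knock-in line, it was the highest for 3 of 6. Among genes measured in both tables, 10.6% had number 2 highest in knock-in, Activin A and SB431542 alike. Against library 1, the MSX genes differed most in each of these groups. Library 2 over library 1 was 3.92, 4.40 and 6.04 for MSX1 in knock-in, Activin A and SB431542, and 2.998, 3.23 and 5.63 for MSX2. For ID3 these ratios were only 1.35, 1.22 and 1.55. MSX1 was also high in library 3 of knock-in and Activin A, at 2.75 and 3.59 times library 1, but not of SB431542, at 1.27 times. Against library 3 the place of MSX1 was another: library 2 over library 3 was 1.42 and 1.23 for MSX1 in knock-in and Activin A, below 2.16 and 1.82 for ID1. MSX2 had the largest of these ratios in those groups, at 2.77 and 2.95. In SB431542 MSX1 (4.75) and MSX2 (4.62) had the largest.

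Within the treatment table, an F test of library number with treatment in the model called MSX2 (F = 79.7, adjusted p = 0.034), where 1.54% of all genes were called. The other members did not pass, with adjusted p of 0.062 for ID2, 0.10 for ID3, 0.11 for ID4, 0.12 for MSX1 and 0.13 for ID1. The MSX2 call was lost without any one of the 6 libraries, at adjusted p from 0.054 without SB431542 library 3 to 0.14 without SB431542 library 2 (0.11, 0.065 and 0.071 without Activin A libraries 1, 2 and 3, and 0.13 without SB431542 library 1), and it was 0.10 with no filter on low values. MSX1 passed without SB431542 library 3 (adjusted p = 0.049). The sum of the trophectoderm markers was 514, 472 and 947 FPKM in library 2 of knock-in, Activin A and SB431542, against at most 227 FPKM in any other library. Most of it was the keratin gene KRT8, at 428, 334 and 835 FPKM. Library number called 3 of the 7 markers tested: KRT8, KRT18 and TFAP2C. It did not call TFAP2A, GATA2, GATA3 or DAB2, and CDX2 and KRT7 were at 0 in library 2 of each of these groups. The part of these markers in the high MSX2 and MSX1 values was not tested, and line and library number cannot be told apart here.

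**Figure D4:**
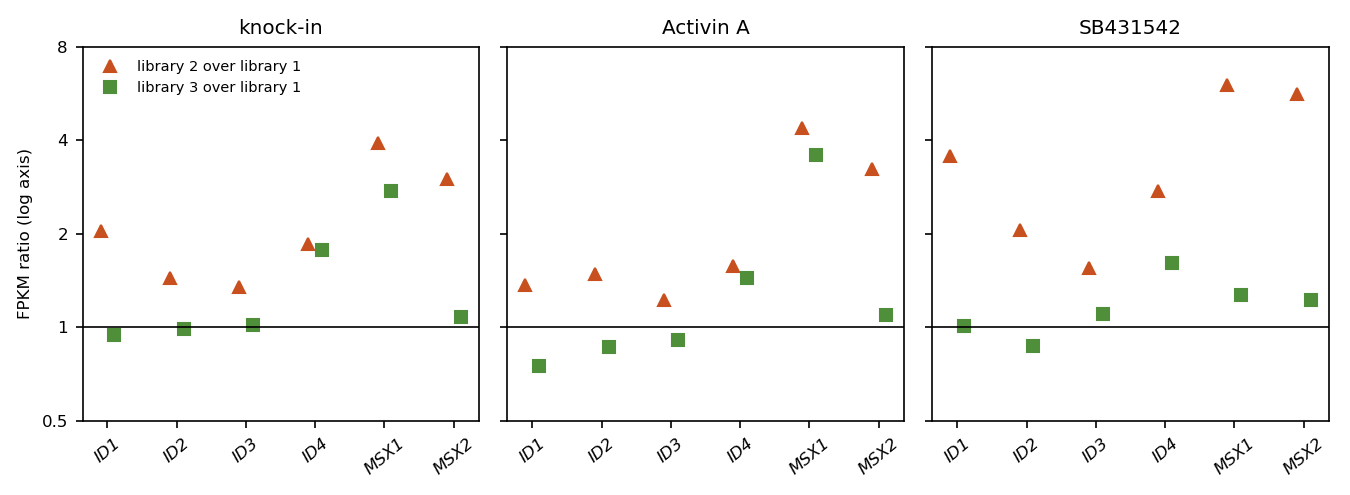
FPKM of each ID and MSX gene in library 2 (triangles) and library 3 (squares) over library 1 of the same group (vertical log axis), for knock-in, Activin A and SB431542. All triangles lie above 1, and those of MSX1 (3.92 to 6.04) and MSX2 (2.998 to 5.63) lie highest in every group.

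The ligands, receptors and inhibitors of the pathway were read from lists of named genes. Of the BMP and GDF ligands, 7 passed the filter and 0 were called by limma in either contrast or with the block. At an unadjusted p of at most 0.05, 2 of the 7 passed in knock-in against WT (28.6% of all genes), 1 in Activin A against SB431542 (12.8% of all genes) and 2 there with the block (23.7% of all genes), so these counts were near the shares over all genes. The ligand that passed unpaired, BMP6, also counts with the block, and it met the filter only through the Activin A libraries. BMP2, which can induce ID1 and MSX2, was at 1.72, 3.28 and 2.33 FPKM in knock-in and 0.479, 0.841 and 1.26 FPKM in WT (log2 fold change 0.88, SE 0.22, adjusted p = 0.054). The median over the list was 0.88 in knock-in against WT and -0.16 in Activin A against SB431542. BMP7, a ligand with broad roles in kidney, eye and epithelia, was at 0.766 FPKM, 11.3 FPKM and 1.49 FPKM in knock-in, 1.13 FPKM, 10.8 FPKM and 2.01 FPKM with Activin A, and 1.58 FPKM, 26.1 FPKM and 1.93 FPKM with SB431542. It was thus high in library 2 alone, and with BMP5 it was 1 of 2 ligands that library number called (adjusted p = 0.044 and 0.050), where that test called 1.54% of all genes. BMP5 went a different way, low in library 1 (4.22 and 1.86 FPKM) and similar in libraries 2 and 3 (9.34 to 13.6 FPKM) of both treatments.

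Of the receptors and receptor SMADs, 12 passed the filter and 0 were called by limma in either contrast, with medians of -0.084 and -0.071; at an unadjusted p of at most 0.05 there were 2 of 12 in knock-in against WT, against 28.6% of all genes, and 3 of 12 in Activin A against SB431542, against 12.8% unpaired and 23.7% with the block. BMPR1A, the main type I receptor for BMP2 and BMP4, lay between 8.44 and 14.9 FPKM in all 12 libraries, and SMAD1 between 9.002 and 12.6 FPKM. SMAD9, another of the SMADs that carry the BMP signal, was at 0.892, 0.721 and 0.862 FPKM in knock-in and 3.35, 1.997 and 1.75 FPKM in WT. The groups did not overlap, and its log2 fold change of -0.85 (adjusted p = 0.040) met the adjusted p but not the fold needed for a call. Library number called 1 of the 12 (1.54% of all genes), the BMP co-receptor RGMA, which was lowest where the MSX genes were highest: 59.0, 51.6 and 49.2 FPKM in library 2 of knock-in, Activin A and SB431542 against 101 to 116 FPKM in libraries 1 and 3 (adjusted p = 0.020).

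Of the inhibitors, 18 passed the filter in knock-in against WT and 2 rose and 0 fell, where 1.61% of all genes were called higher and 0.706% lower. The median was 0.17, against -0.0014 over all genes. NOG, which encodes the BMP-binding antagonist Noggin, was at 3.67, 5.69 and 8.43 FPKM in knock-in and 1.59, 1.47 and 2.45 FPKM in WT (log2 fold change 1.25, SE 0.27, adjusted p = 0.039). GREM1, another secreted antagonist, was at 1.16, 3.14 and 0.841 FPKM against 0.163, 0 and 0.109 FPKM (1.23, SE 0.28, adjusted p = 0.044). It met the filter only with the help of the knock-in libraries, so its place in the counts rests in part on the filter. NOG and GREM1 were thus higher in the same group as ID1, ID3 and MSX2, and GREM1, like them in that group, was highest in library 2. Other secreted antagonists parted the groups without being called. CHRD (-0.72, adjusted p = 0.10) and CHRDL1 (-0.88, adjusted p = 0.097) lay lower in knock-in. FST (0.998, limma adjusted p = 0.043), FSTL3 (0.49, adjusted p = 0.057) and SOST (0.66, adjusted p = 0.21) lay higher. Of all genes tested, 19.0% did not overlap in the higher direction, so parting the groups was common. SOST met the filter only through the knock-in libraries.

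Between the treatments 17 inhibitors were tested, 1 was called higher unpaired and 4 with the block, where 0.0571% and 0.521% of all genes were called higher. The median was 0.36, against -0.0040 over all genes. SMAD7, the intracellular brake on TGF-β and BMP receptors, was at 7.28, 8.07 and 6.68 FPKM with Activin A and 1.75, 1.11 and 1.37 FPKM with SB431542 (1.80, SE 0.14, adjusted p = 0.024). Unlike the ID genes it was not highest in SB431542 library 2. The block added BAMBI, a decoy receptor (1.11, adjusted p = 0.016), FST, which binds Activin and BMPs (1.28, adjusted p = 0.012), and SOST, a secreted antagonist mostly of WNT (2.03, adjusted p = 0.034), which met the filter only through the Activin A libraries. SMAD6, the brake most selective for BMP signalling and itself a BMP target, lay lower with Activin A (3.08, 2.06 and 3.70 FPKM) than with SB431542 (5.81, 4.42 and 4.02 FPKM), without passing the test (-0.55, SE 0.20, adjusted p = 0.32).

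**Figure D5:**
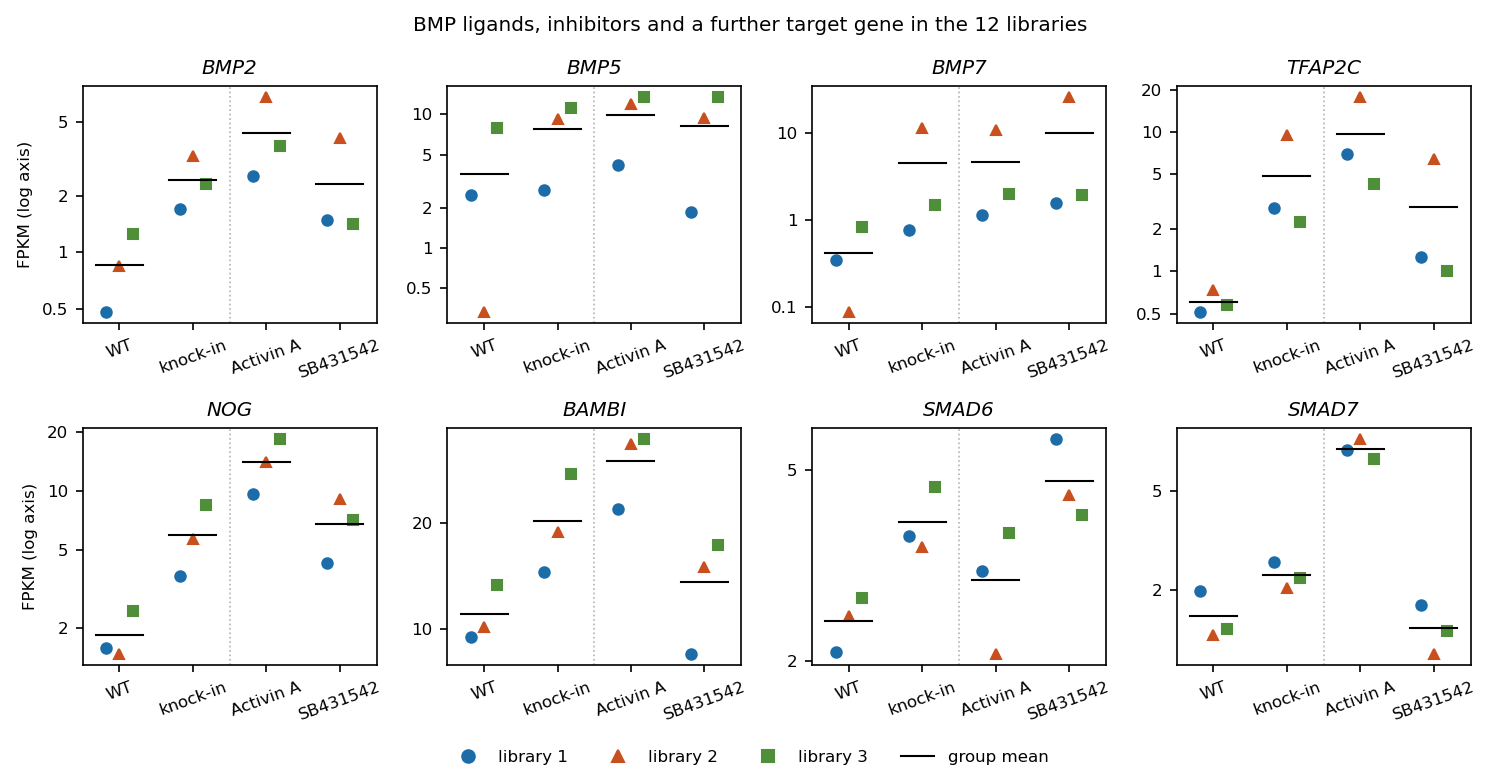
FPKM of BMP2, BMP5, BMP7, TFAP2C, NOG, BAMBI, SMAD6 and SMAD7 (vertical log axis, with its own range per gene) in the 12 libraries; symbols give the library number, bars the mean of 3, and the dotted line parts the 2 tables. BMP7 is highest in library 2 of the 3 groups of reporter cells (10.8 to 26.1 FPKM), and SMAD7 parts Activin A (6.68 to 8.07 FPKM) from SB431542 (1.11 to 1.75 FPKM).

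Of 19 other BMP target genes tested, 5 were called higher in knock-in than in WT and 0 lower, where 1.61% and 0.706% of all genes were so called. The median was 0.80, against -0.0014 over all genes. Besides NOG and GREM1, which stand in both lists, these were KLF10, a TGF-β-inducible zinc finger repressor (2.57, adjusted p = 0.0063), TFAP2A, an AP-2 factor of surface ectoderm (1.56, adjusted p = 0.019), and HEY1, a repressor shared with the Notch pathway (1.40, adjusted p = 0.0088). Between the treatments 1 was called unpaired, SMAD7, and 6 with the block, all higher with Activin A, where 0.0571% and 0.521% of all genes were called higher. The median was 0.31. The block's calls were SMAD7, BAMBI, HEY1 (1.93, adjusted p = 0.027), TFAP2C (1.51, adjusted p = 0.019), GATA2 (2.28, adjusted p = 0.034) and KLF10 (1.20, adjusted p = 0.045). TFAP2C, an AP-2 factor of trophectoderm and germ cells, resembled MSX2 in being highest in library 2 of both treatments, at 17.8 and 6.36 FPKM, and library number called it as well (adjusted p = 0.034).

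Among the ID partners, the E proteins were abundant and were not called in any test. TCF3 lay at 35.8 to 74.4 FPKM, TCF4 at 12.02 to 20.1 FPKM and TCF12 at 28.4 to 51.7 FPKM over the 12 libraries, so ID3 exceeded each of them in every knock-in library. Of 13 partners tested in knock-in against WT, 3 rose (1.61% of all genes), with a median of 0.26. HES1, a Notch-responsive repressor, rose by 2.41 (adjusted p = 0.0033), TWIST1, a mesenchymal helix-loop-helix factor, by 1.42 (adjusted p = 0.018) and ETS1, a partner outside the helix-loop-helix class, by 1.04 (adjusted p = 0.025). Of 12 tested between the treatments, HES1 was called unpaired (2.88, adjusted p = 0.024), and the block added the proneural factor NEUROG1 (1.84, adjusted p = 0.012), where 0.0571% of all genes were called higher unpaired and 0.521% with the block. The median was 0.13, against -0.0040 over all genes.

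The Activin and Nodal targets show what the treatments did to their own pathway. Of 12 tested, 3 were called higher with Activin A unpaired and 5 with the block, where 0.0571% and 0.521% of all genes were called higher, and the median was 0.46. NANOG was at 109, 195 and 157 FPKM with Activin A and 11.8, 27.2 and 11.8 FPKM with SB431542 (3.18, SE 0.35, adjusted p = 0.042), and SMAD7 was named above. LEFTY2, a Nodal antagonist, was at 1.37, 0.783 and 1.20 FPKM with Activin A and listed at 0 in all 3 SB431542 libraries, so no fold is given, and since it met the filter only through the Activin A libraries its place in the count rests in part on the filter. Like ID1 and ID2, NANOG was highest in library 2 of both treatments. In knock-in against WT, 3 of 12 rose: NANOG (2.06, adjusted p = 0.025), the matrix gene CCN2 (1.96, adjusted p = 0.025) and TGIF1, a SMAD corepressor (1.33, adjusted p = 0.0093), where 1.61% of all genes were called higher and 0.706% lower. The median was 0.73, against -0.0014 over all genes.

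The genes most like each member over the 12 libraries were found by Pearson's r of log2(FPKM + 1) among 10501 genes. These values are descriptions that share groups, tables and library numbers. ID1 was most like BCL2L1, an inhibitor of cell death (r = 0.980), and ID2 was most like FANCG, a DNA repair gene (0.885), with BCL2L1 next (0.869). ID3 was most like ACTN4, an actin cross-linker (0.979), and ID4 was most like TMEM255A (0.918). MSX1 was most like SLIT2, a guidance ligand (0.921), and MSX2 was most like F3, the tissue factor of coagulation (0.978). Among the members themselves, ID1 and MSX2 were the most alike (0.937), followed by ID3 and MSX2 (0.867), ID1 and ID3 (0.849) and ID1 and ID2 (0.835), and ID3 and ID4 the least (0.267).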

How the data were processed

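RNA of 12 pig PC-iPS libraries was measured in 4 groups of 3, with groups and numbers taken from the sample labels. The authors deposited FPKM per gene in 2 tables; they aligned reads to Sscrofa11.1 with HISAT2 (2.0.4) and quantified them with StringTie (1.3.3), both per the submitters' processing notes. FPKM divides by gene length and library size, so total depth and counting error are unknown. Each table held 24358 genes, and members were matched by the symbols in the tables.

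Genes that reached 0.1 FPKM in 3 or more libraries of a table were tested on log2(FPKM + 1) with limma 3.58.1 (variance trend, R 4.3.3), within each table, with Benjamini-Hochberg adjustment over all genes tested. A call needed a log2 fold change of 1 or more in either direction and an adjusted p no greater than 0.05; the F test of library number used the adjusted p alone. Deviations from group means of libraries with the same number correlated at 0.40, 0.59 and 0.53 between Activin A and SB431542, a pairing that comes from the numbers in the labels and these correlations. For knock-in they were 0.51, 0.64 and 0.66 against Activin A and 0.52, 0.63 and 0.57 against SB431542. Libraries with different numbers correlated negatively in all of these comparisons. Deviations from a group mean cancel out within the group, so positive same-number values force negative ones elsewhere on average. The negative sign therefore adds no support for the pairing. Single genes also had exact two-sided permutation tests. In data simulated with 200 genes at a log2 fold change of 2, the fits recovered 187 in knock-in against WT, 185 in Activin A against SB431542 and 185 there with the block.

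Members and lists were chosen with earlier results of these data known. The text names all members, list genes called in a comparison (some are not reported here), and the genes most like each member; BMP2, BMP6, BMPR1A, SMAD1, SMAD6, SMAD9 and the E proteins were named after their values were seen. Results were repeated with 2 other pseudocounts (0.1 and 0.01), without the filter or with one at 1 FPKM, on TPM, median-ratio and quantile scales, with no variance trend, with the replicate block, by the adjusted p alone and without each library. Columns of the authors' own comparisons were not used. Plots were made in Python 3.11.15 (matplotlib 3.10.9).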

Additional observations from a re-analysis of the deposited data

How the results depend on the processing

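Total depth is unknown, so counting error could not be given. With all libraries kept, the knock-in against WT calls of ID1, ID3 and MSX2 held under all 9 alternatives, and no member turned direction. The counts of genes called depended more on the setting. In knock-in against WT the 225 higher calls became 346 with a pseudocount of 0.1 and 684 by the adjusted p alone, and the 99 lower calls became 192 with a pseudocount of 0.1, 181 with 0.01, 42 with no filter, 60 with the replicate block and 328 by the adjusted p alone. In Activin A against SB431542 the 8 higher calls became 5 with a pseudocount of 0.01, 3 with no filter, 2 with the filter of 1 FPKM, 3 with no variance trend and 13 by the adjusted p alone, and the 5 lower calls became 3, 2 and 3 under the first 3 of these. Higher calls made up 61.5% of calls there, 40% with the filter of 1 FPKM, 42.9% with no variance trend and 73.7% with the block. No scaling moved the median log2 fold change of all genes by over 0.1.

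With the replicate block, Activin A against SB431542 had 73 higher and 26 lower calls and ID2 was called (1.28, adjusted p = 0.019), and the block changed no other member's call. In knock-in against WT libraries shared only a number (correlations of -0.018, 0.0087 and 0.094). The F test of library number called 215 genes, and 0 with no filter, when MSX2 was at adjusted p = 0.10.

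Leaving out one library gave 119 to 298 higher and 28 to 142 lower calls in knock-in against WT, 0 to 4 and 0 to 1 in Activin A against SB431542, and 2 to 41 for library number. Over these fits in knock-in against WT, ID1 ran from 1.25 to 1.73, ID2 from -0.093 to 0.493, ID3 from 1.71 to 2.29, ID4 from -0.314 to 0.091, MSX1 from 0.454 to 1.33 and MSX2 from 1.33 to 1.91. In Activin A against SB431542, ID1 ran from 1.04 to 1.85, ID2 from 1.05 to 1.65, ID3 from 0.0201 to 0.334, ID4 from -0.166 to 0.516, MSX1 from -0.192 to 0.987 and MSX2 from 0.155 to 1.15; MSX1 turned direction without Activin A library 2, SB431542 library 1 or SB431542 library 3, and ID4 without SB431542 library 1. For library number, adjusted p ran from 0.054 to 0.14 for MSX2 and from 0.049 to 0.30 for MSX1. Leaving out both libraries numbered 2, chosen after seeing the data, left 27 higher and 3 lower calls in knock-in against WT, with ID1 at 1.23 (adjusted p = 0.10) and ID3 at 1.74 (adjusted p = 0.13) no longer called and MSX2 still called (1.36, adjusted p = 0.042), and 0 higher and 0 lower calls in Activin A against SB431542. The cause of these changes was not tested.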

Other observations

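Some cell-type genes outside the pathway lists moved in the contrasts where the members did. PAX6, a neural and eye regulator, was at 0.858, 4.12 and 3.84 FPKM in knock-in and 14.1, 26.8 and 8.96 FPKM in WT (log2 fold change -2.17, SE 0.48, limma adjusted p = 0.040). KRT8, a keratin of simple epithelia, was at 96.7, 428 and 44.3 FPKM in knock-in and 7.51, 3.34 and 8.50 FPKM in WT (4.13, SE 0.75, adjusted p = 0.025). In the treatment table library number called KRT8 as well (F = 522, adjusted p = 0.0085), and with the block KRT8 was lower with Activin A than with SB431542 (-1.21, adjusted p = 0.015). LIN28A, a pluripotency RNA-binding protein, was also lower with Activin A than with SB431542 in the fit with the block (-1.55, SE 0.11, adjusted p = 0.015), a direction opposite to that of ID2.

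SMAD5, which carries the BMP signal to the ID genes, was at 7.67 to 9.12 FPKM in 10 libraries but at 2.63 FPKM in Activin A library 3 and 2.70 FPKM in SB431542 library 1. Within their treatments these were also the libraries with the lowest ID3, at 293 FPKM and 253 FPKM. Whether the low SMAD5 values bear on ID3 was not tested, and the gene was chosen after its values were seen.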
